A study of Mus musculus with 8 samples.

Results

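The 82 genes described here are named for proteins of the cytosolic ribosome, and were read in 8 RNA-seq libraries made from EO771, a cell line derived from a mouse mammary tumour. They were chosen by name alone, as the genes of the count table named Rpl or Rps and a number, with a final a, x, y or l where there is one, together with Rplp0, Rplp1, Rplp2 and Rpsa. Rpl32, the Rps6k kinases and pseudogenes with -ps in their names were left out, so that 82 of the 49997 genes in the table were members. GENCODE M21 annotates 3 of them, Rpl6l, Rpl32l and Rps4l, as processed pseudogenes, and 79 as protein-coding. Of the 82, 42 encode proteins of the large subunit, 30 of the small subunit and 3 of the P stalk, and 7 have names that end in l, those 3 pseudogenes and 4 paralogues. The markers of the set, Rps2 and Rpl8, had between 98 and 227 and between 50 and 104 counts per library.

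Each cytosolic ribosome holds a small subunit, which reads the mRNA, and a large subunit, which joins the amino acids. Their proteins are made in matched amounts, and their mRNAs are as a rule among the most abundant of a growing cell. Many of these mRNAs begin with a C and a run of pyrimidines, the 5′ terminal oligopyrimidine (TOP) tract, through which mTORC1 and LARP1 set their translation. Most have many processed pseudogene copies in the genome, and many of the genes carry snoRNA genes in their introns.

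The study asked how 12-HETE, a lipid product of 12-lipoxygenase, and the long isoform of the RNA editing enzyme ADAR1 change tumour cells. In the first experiment, cultures were kept for 48 h with 12-HETE at 100 nM or with its vehicle, saline that held 2% DMSO, and in the second the cells carried an overexpression vector for ADAR1 p150 or the vector alone. Each group had 2 libraries, numbered 4 and 5 in the first experiment and 1 and 2 in the second. The labels do not say whether replicates came from separate cultures. The study's legend for its editing comparison of these conditions speaks of independent experiments, without naming the libraries. If the replicates were not separate cultures, p-values measure only a technical spread. Whether the vector lines were clones or pools, and which promoter drove ADAR1 p150, was not given in the sources used here.

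Library totals were between 1101767 and 1537037 counts, of which a single non-coding gene, AY036118, took between 44.4% and 50.3%. Levels are given in CPM, a count divided by the TMM-scaled total of its library and put on a common scale. That total was taken over the 6901 genes tested. On this scale, 3 counts corresponded to between 2.11 and 2.74 CPM. Adar, the overexpressed gene, had 181 and 140 counts in the ADAR1 p150 libraries and between 2 and 8 in the other 6. The epithelial keratins Krt8, Krt18 and Krt19 had between 42 and 150 counts in every library. Of the other epithelial markers, Cdh1 had 0 counts in every library and Epcam between 1 and 4, while the blood cell markers Ptprc, Cd3e and Lyz2 had at most 2. The endothelial and fibroblast markers Pecam1, Cdh5, Col1a1 and Col3a1 had at most 9 counts in a library, and Dcn between 8 and 57.

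RefSeq (GRCm38.p6) held a promoter window, from 250 bases before to 50 after an annotated start, for 61 of the 82 members. A TOP-like tract, counted here as a C at the annotated start followed by at least 4 pyrimidines, stood in 14 of these 61 (23.0%) and in 813 of 27025 genes in all (3.01%). The members below are shown because they were called with 12-HETE, with ADAR1 p150 or between the control groups, or because they are the tested members with the longest tracts, or as the highest member, Rpl41. Each line gives 10 bases before the annotated start and 20 from it on, read 5′ to 3′ on the gene's own strand, with the tract in capitals.
Rps18 (chr17:33955646-33955675, minus strand): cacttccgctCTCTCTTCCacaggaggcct
Rpl35 (chr2:39005112-39005141, minus strand): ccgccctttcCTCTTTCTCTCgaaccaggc
Rpl15 (chr14:18270967-18270996, minus strand): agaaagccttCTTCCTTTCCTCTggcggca
Rps10 (chr17:27635225-27635254, minus strand): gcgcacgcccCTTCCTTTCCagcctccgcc
Rps6 (chr4:86857348-86857377, minus strand): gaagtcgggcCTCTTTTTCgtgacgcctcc
Rpl41 (chr10:128549149-128549178, minus strand): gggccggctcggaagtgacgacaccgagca
Rps2 (chr17:24720053-24720082, plus strand): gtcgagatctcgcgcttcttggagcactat
Rpl12 (chr2:32961702-32961731, plus strand): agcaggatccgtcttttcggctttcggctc
Rpl10 (chrX:74270806-74270835, plus strand): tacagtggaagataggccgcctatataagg
Rpl10a (chr17:28328461-28328490, plus strand): gcccccccagcggccgcaaactgcagcgcc
Rplp0 (chr5:115559457-115559486, plus strand): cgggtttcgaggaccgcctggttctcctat
Rps23 (chr13:90923112-90923141, plus strand): cggctgggcggggcttcccgcaatgccttg

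Rpl15 had the longest tract of the 5 shown with one, 13 bases, and the last 7 members listed had none at the annotated start. An annotated start can lie some bases away from the base where transcription begins, and a tract of this kind stood somewhere in the 30 bases for 42 of 61 members (68.9%), against 39.6% of genes in all. On either strand of the whole 300-base window, CCGGAAG, the core of many ETS factor motifs, was found in 25 of 61 members (41.0%) against 9.93% of genes. The GC box GGGCGG was found in 36 (59.0%) against 38.2%, and TATAAA in 7 (11.5%) against 15.7%. AAGATGGC, a form of the YY1 motif, was found in 5 (8.20%) against 3.19%, and the E-box CACGTG in 6 (9.84%) against 8.09%. These are matches of letters, and no binding was measured. GENCODE M21 (GRCm38) placed a snoRNA gene within 28 of the 82 members (34.1%), against 1.18% of 21951 protein-coding genes. The 82 genes lay on 19 chromosomes.

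The members took up a small part of the counts of every library, where ribosomal protein mRNAs are as a rule abundant. Which strand was counted is not given in the sources used here, so these values are counts assigned to the genes, and that they are levels of the mRNAs was not tested. All 82 together summed to 3545 and 4749 counts under vehicle and to 4759 and 3820 under 12-HETE. In the second experiment they summed to 2482 and 3014 counts in vector cells and to 3979 and 2668 in ADAR1 p150 cells. This was between 0.197% and 0.395% of a library's counts, and between 0.362% and 0.763% without AY036118. In CPM, the sum was 3487 ± 640 (SD, n = 2) with vehicle, 3160 ± 332 with 12-HETE, 2450 ± 260 with vector and 2408 ± 553 with ADAR1 p150. Both vehicle libraries lay above both vector libraries, whereas 12-HETE overlapped vehicle and ADAR1 p150 overlapped vector. In bulk RNA, fewer cells with a transcript and less of it per cell cannot be told apart.

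**Figure D1:**
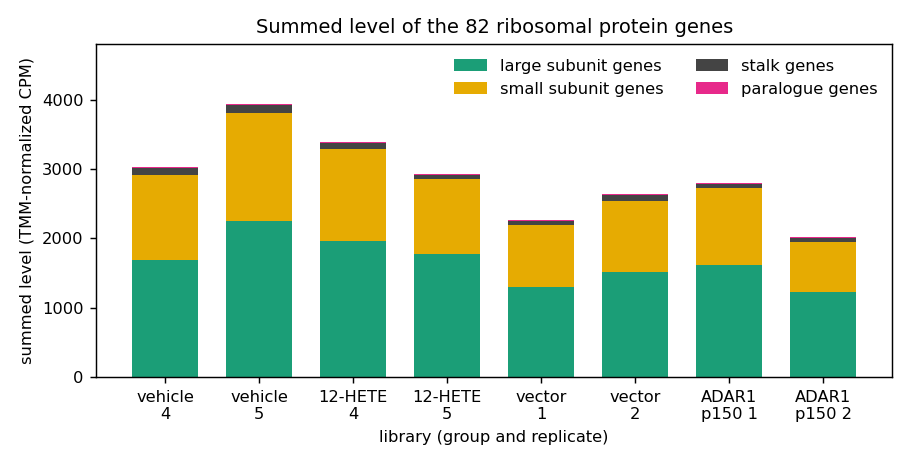
Stacked bars give the summed level of the 82 genes in CPM (vertical axis) in each of the 8 libraries (horizontal axis), divided by the place of the protein in the ribosome. The bars reach from 2017 in ADAR1 p150 replicate 2 to 3940 in vehicle replicate 5, and large and small subunit genes make up nearly all of each.

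Counts were spread unevenly over the members. The 8 highest, Rpl41, Rps18, Rpl18, Rpl27, Rps2, Rpl19, Rps14 and Rps3, held 38.0% of the 29016 member counts. Rpl41, which encodes the smallest ribosomal protein, had the highest mean level, 230 CPM, and Rps18, at the head of the small subunit, the next, 191 CPM. Per kilobase of the shortest well-supported principal transcript, the 5 highest were Rpl41 at 423 CPM, Rps18 at 342, Rpl18 at 247, Rpl27 at 203 and Rps14 at 136. Rps2, a protein of the mRNA entry channel, was at 120 CPM per kilobase, and Rpl8, next to the peptidyl transferase centre, at 74.8.

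At the low end, 25 members had a mean count under 10 and were not tested. The 57 tested members, of 6901 genes tested in all, comprised 32 of 42 large subunit genes, 23 of 30 small subunit genes, 1 of 3 stalk genes and 1 of the 7 with a final l. Their mean counts had a median of 46.9, against 27.5 over all tested genes, and 8 had a mean of at least 100. Rps28, at a mean of 10.2, lay just above the minimum and Rps20, at 9.62, just below it. Among stalk genes, Rplp0 had between 52 and 136 counts per library, while Rplp1 had between 0 and 5 and Rplp2 between 4 and 11, although the ribosome carries P1 and P2 together with P0. Rpsa, the small subunit protein also known as a laminin receptor, had between 39 and 70 counts, and Rps27a, made as a fusion with ubiquitin, between 21 and 40.

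The genes named with a final l were at or near the floor, with Rpl3l and Rps27l above it. Rpl39l, known from testis, and the pseudogene Rps4l had 0 counts in all 8 libraries, which allows up to 3 counts in a library. Rps4x, the X-linked parent of Rps4l, had between 17 and 74 counts, and Rpl39 between 0 and 6. Rpl10l and Rpl32l had a single count in the 8 libraries, and Rpl6l between 0 and 3 against 17 to 39 of Rpl6. Rpl3l, known from heart and skeletal muscle, had 11 and 13 counts under vehicle, 9 and 6 under 12-HETE, 9 and 10 in vector cells and 22 and 9 in ADAR1 p150 cells, against 37 to 76 of Rpl3. It shared no 50-base stretch with another gene's transcripts, those of Rpl3 included. Rps27l and its parent Rps27 were alike low, between 3 and 10 and between 2 and 14 counts, and 98.6% of the 50-base stretches of Rps27 stood in transcripts of other genes as well.

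Shared sequence was common among the members and limits how finely their counts can be read. Over the 57 tested members, a median of 52.3% of a transcript's 50-base stretches also stood in transcripts of other genes, and 29 members were over 50%. Rps18 was at 86.7%, Rpl10 at 92.1%, Rpl10a at 88.1% and Rps2 at 79.0%, so counts of these genes are uncertain where reads with several matches were split or dropped. Rpl8 (7.86%) and Rps3 (2.96%) shared little. The table also listed 318 pseudogenes named for a member, which together had between 306 and 444 counts per library, and 8 of them passed the minimum. The highest of these 8 was Rps18-ps4, with a mean of 56.0 counts.

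Genes on the opposite strand stood over exons of several members, and often had far more counts. Of 16 pairs with overlapping exons and both genes in the table, with 14 members, the opposite gene had more counts than the member in 9. Wdr38, a WD-repeat gene on the plus strand of chromosome 2, had 9897 counts over the 8 libraries and Rpl35, on the minus strand, 307. Tlcd1 had 7625 counts against 260 of Rpl23a, and Nkiras1, a regulator of NF-kB, 3170 against 101 of Rpl15. Dipk1a, which overlaps Rpl5 over 953 bases of exon, had 6465 counts against 744. Ccdc84 had 5803 against 410 of Rps25, and Lrsam1, a ubiquitin ligase, 1493 against 599 of Rpl12. In the other direction, Rpl18 had 1693 counts against 322 of the sphingosine kinase Sphk2, Rps18 1912 against 25 of Vps52, Rps27a 245 against 8 of Clhc1, and Rps2 1204 against 3 of Snhg9. With the strand setting of the counting not given, and different library kits named in the labels and in the study's methods, reads of such a member and of its partner cannot be told apart. If a kit that marks strand was counted with the opposite setting, the counts of every member, with or without a gene on the opposite strand, would come from the wrong strand. This was not tested, and leaving out the members with an opposite-strand gene does not bear on it. For overlap alone, medians are also given below for the 38 tested members with no annotated gene on the opposite strand.

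**Figure D2:**
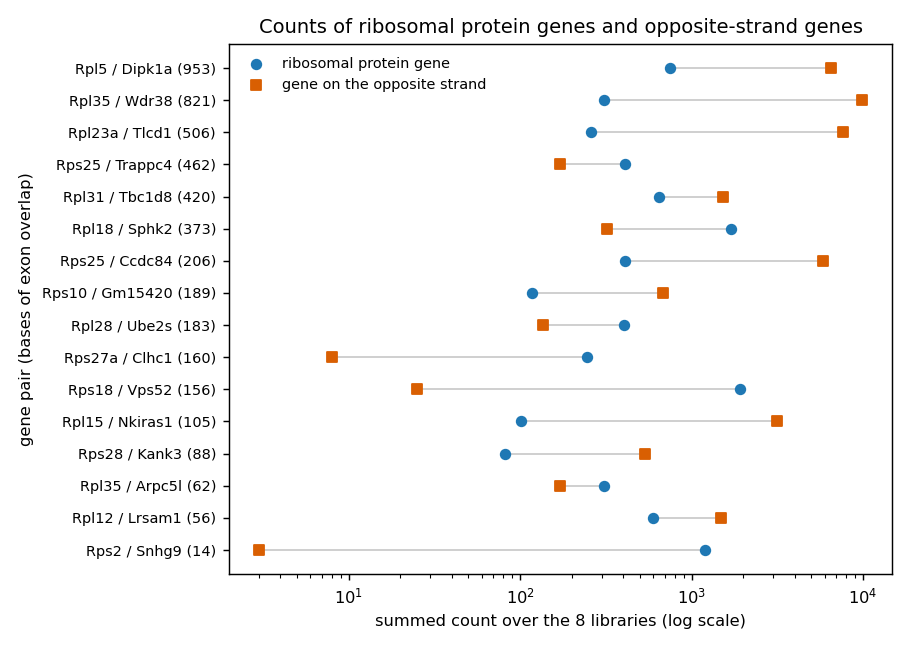
Each line is 1 of the 16 pairs of a ribosomal protein gene and a gene with overlapping exons on the opposite strand, with the summed count of both over the 8 libraries on a log axis and the bases of exon overlap in brackets. The opposite gene (square) lies to the right of the ribosomal protein gene (circle) in 9 pairs.

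The first comparison asked whether 12-HETE changed the members. Of 57 members, 40 (70.2%) had a log2 fold change below 0, against 49.6% of all tested genes. The median was -0.15, against 0.00 over all tested genes, and smaller than the spread between replicates given below. Members also moved together between replicates, so they are not separate observations. No member was called higher and 5 were called lower at an adjusted p under 0.05 in the edgeR quasi-likelihood test, or 8.77%, where 14.2% of all tested genes were called lower and 15.1% higher. The share of members called lower was thus below that over all genes, and none of the 5 changed 2-fold, where 8.25% of all tested genes were called lower by that rule. At an unadjusted p under 0.05, 9 members were lower and 2 higher, against 18.9% and 20.2% of all genes. Both 12-HETE libraries lay below both vehicle libraries for 16 members (28.1%, background 31.2%) and above them for 6 (10.5%, background 32.9%).

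The 5 called members are genes of the small subunit (Rps18 and Rps23), of the large subunit (Rpl10a and Rpl12) and of the stalk (Rplp0). Rpl12, which binds at the base of the stalk where elongation factors dock, was at 83.9 and 85.5 CPM with vehicle and 64.2 and 39.1 with 12-HETE (log2 fold change -0.70, SE 0.20, adjusted p = 0.00697 in edgeR). Rplp0, the protein that holds the stalk, was at 88.2 and 113 CPM and at 81.3 and 58.2 (log2 fold change -0.52, SE 0.19, adjusted p = 0.0319 in edgeR). In both genes the 12-HETE libraries lay below the vehicle libraries, and in Rpl12 they differed from each other by more than the vehicle libraries did. Rpl10a (chr17:28328471-28331033, plus strand), the mobile L1 protein near the exit site, had the largest fall of the 5, from 34.2 and 42.3 CPM to 24.97 and 16.1 (log2 fold change -0.89, SE 0.28, adjusted p = 0.0141 in edgeR). Rps18 was at 220 and 266 CPM with vehicle and 196 and 166 with 12-HETE (log2 fold change -0.42, SE 0.13, adjusted p = 0.0143 in edgeR). Rps23, a protein of the decoding centre, was at 37.7 and 29.9 CPM with vehicle and 19.3 and 22.2 with 12-HETE (log2 fold change -0.70, SE 0.27, adjusted p = 0.0492 in edgeR).

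The markers and the highest member did not pass. Rps2 was at 140 and 188 CPM with vehicle and 134 and 118 with 12-HETE (log2 fold change -0.38, SE 0.15, adjusted p = 0.0575 in edgeR), and it passed without vehicle replicate 4 (-0.58, adjusted p = 0.0147). Rpl8 was at 76.2 and 86.3 CPM against 72.0 and 70.5 (log2 fold change -0.19, SE 0.17). Rpl41 was at 187 and 307 CPM with vehicle and 295 and 307 with 12-HETE, so the groups overlapped (log2 fold change 0.28, SE 0.16), and it passed without vehicle replicate 5 (0.61, adjusted p = 0.00711 in edgeR). Large subunit genes had a median of -0.06 and small subunit genes of -0.16. Over members with no opposite-strand gene the median was -0.15 as well, and the 8 tested members with a tract at the start had -0.26 against -0.07 of the 36 with a window and none. The same medians were -0.14 and -0.07 for ADAR1 p150 against vector, and in the reverse order, -0.47 and -0.52, for vector against vehicle. A link to the tract was not tested.

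The calls were few and not firm. DESeq2 called 0 members, and without 12-HETE replicate 5 a single member was called, Rpl10, which was higher (log2 fold change 1.08, adjusted p = 0.0105 in edgeR), and the median was -0.02. Leaving out vehicle replicate 5 gave 3 calls and leaving out vehicle replicate 4 gave 9. Without 12-HETE replicate 5, none of the 5 named genes passed, with adjusted p between 0.0974 and 0.354 in edgeR.

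**Figure D3:**
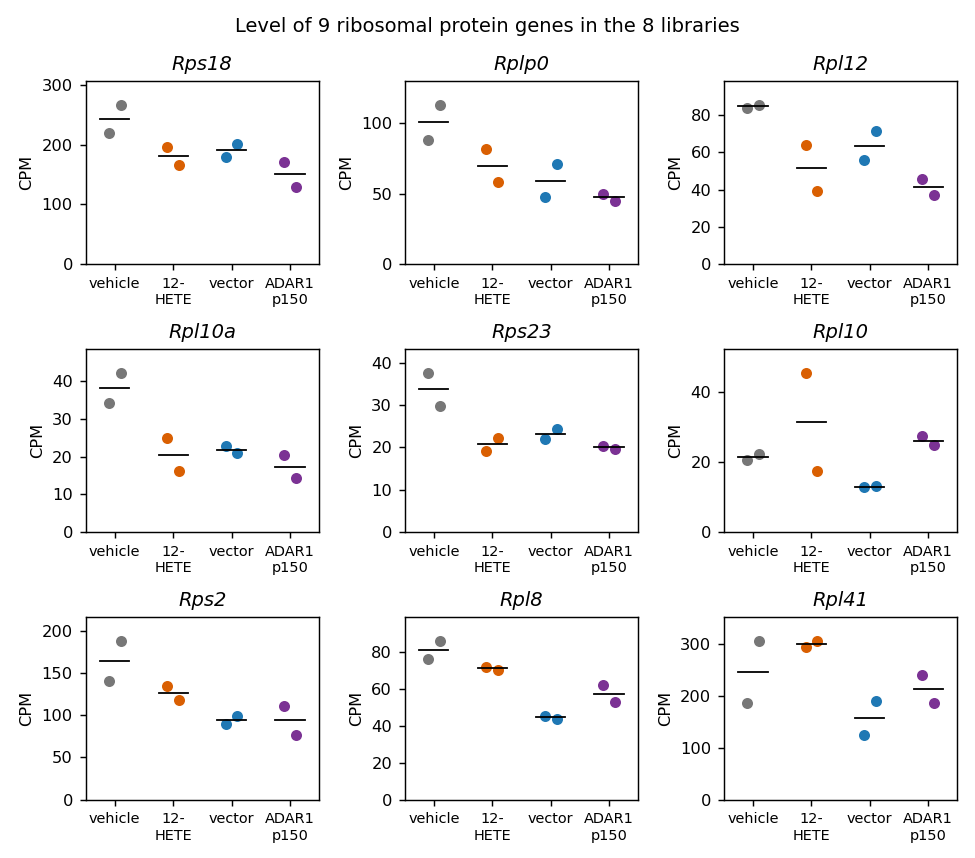
Points give the level in CPM (vertical axes, each from 0) of 9 ribosomal protein genes in the 2 libraries of each group (horizontal axes), and the line their mean. Rps18, Rplp0, Rpl12, Rpl10a, Rps23, Rps2 and Rpl8 are lower in both 12-HETE libraries than in both vehicle libraries. The same genes are also lower in both vector libraries than in both vehicle libraries.

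The second comparison asked the same of ADAR1 p150 overexpression. The median log2 fold change was -0.09 against 0.07 over all tested genes, with 36 of 57 members below 0 (63.2%, background 45.4%). In edgeR 1 member was called higher and 1 lower (1.75% each), where 14.5% of all tested genes were called higher and 11.1% lower. Rpl10, a late-joining large subunit protein close to the peptidyl transferase centre, was at 12.8 and 13.1 CPM with vector and 27.4 and 24.9 with ADAR1 p150 (log2 fold change 1.01, SE 0.37, adjusted p = 0.0409 in edgeR). It lies at chrX:74270812-74273135 on the plus strand. Its replicates lay close together in both groups of this comparison, on 14 and 15 counts and 39 and 33 counts. The 12-HETE libraries, by contrast, lay far apart for Rpl10, on 64 and 23 counts (45.7 and 17.6 CPM). Close replicates were thus not a general feature of this gene. Of its 50-base stretches, 92.1% also stood in transcripts of other genes. Of the 8 tested pseudogenes named for a member, 3 were called with ADAR1 p150 (median 0.09, background 25.6%). Tested processed pseudogenes had a median of 0.48, with 155 of 205 above 0. Whether such reads entered the Rpl10 counts was not tested. Rpl12 was at 55.7 and 71.6 CPM with vector and 45.7 and 37.0 with ADAR1 p150 (log2 fold change -0.62, SE 0.22, adjusted p = 0.0345 in edgeR). It was the only member called in both treatments, and lower in both, but with ADAR1 p150 its call was lost without vector replicate 2 (log2 fold change -0.42, adjusted p = 0.317 in edgeR) and without ADAR1 p150 replicate 2 (-0.48, adjusted p = 0.201). Over the other alternatives its adjusted p was between 0.0151 and 0.143. Lrsam1, on the strand opposite to Rpl12, had log2 fold changes of 0.02 with 12-HETE and -0.17 with ADAR1 p150, neither called.

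The other genes named for 12-HETE did not pass here. Rps18 was at 180 and 201 CPM with vector and 172 and 129 with ADAR1 p150 (log2 fold change -0.34, SE 0.14, adjusted p = 0.0745 in edgeR), and passed without ADAR1 p150 replicate 1 (-0.56, adjusted p = 0.0156). Rplp0, Rpl10a and Rps23 had log2 fold changes of -0.32, -0.32 and -0.21. Rpl41 was at 124 and 190 CPM against 241 and 187 (log2 fold change 0.44, SE 0.17, adjusted p = 0.0531 in edgeR). It passed without vector replicate 2 (0.79, adjusted p = 0.00211 in edgeR) and without ADAR1 p150 replicate 2 (0.61, adjusted p = 0.0281), and was at 0.17 (adjusted p = 0.575) without vector replicate 1. Rpl8 was at 45.6 and 43.7 against 61.9 and 52.9 (log2 fold change 0.36, SE 0.20). Rps2, at 89.5 and 98.7 CPM with vector and 111 and 77.1 with ADAR1 p150, overlapped between the groups. DESeq2 called 0 members. The direction of the median rested on single libraries: it was -0.32 without ADAR1 p150 replicate 1, 0.18 without ADAR1 p150 replicate 2 and 0.03 without vector replicate 2. Rpl10 stayed between 0.94 and 1.08 with each library left out, but its adjusted p was then between 0.083 and 0.148 in edgeR.

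No member passed a test of whether its response differed between the treatments. The test of the difference between both effects called 0 of 57 members in edgeR, where 8.29% of all tested genes were called higher and 6.68% lower, and 1 member had an unadjusted p under 0.05 (1.75%, background 15.3%), which was Rpl8 (difference 0.55, SE 0.26, adjusted p = 0.159). DESeq2 likewise called 0, and edgeR called 1 without ADAR1 p150 replicate 2, the small subunit gene Rps15. The median SE of a member's difference was 0.35 on the log2 scale, so differences of modest size could not be resolved at this depth. In the comparisons of each treatment with its own control, which share no library, 41 of 57 members (71.9%) had the same sign, against 61.9% of all tested genes.

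**Figure D4:**
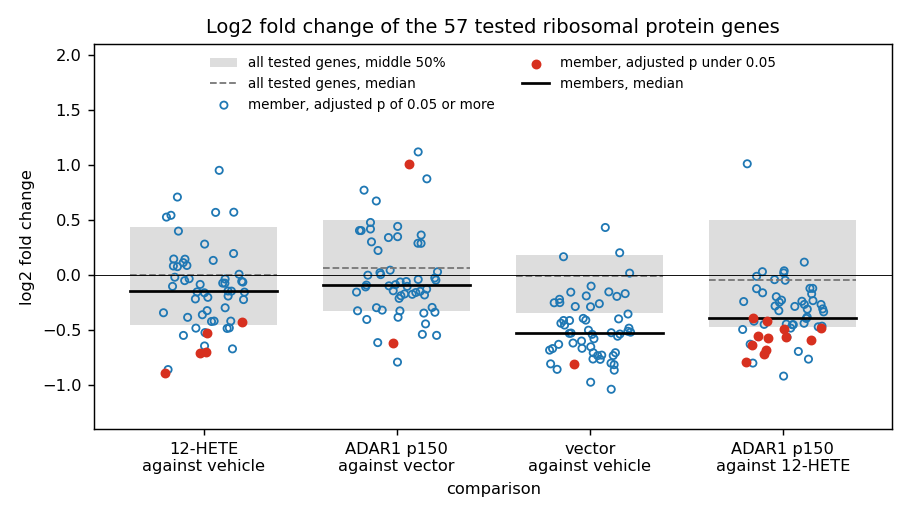
Circles give the log2 fold change (vertical axis) of each of the 57 tested members in 4 comparisons (horizontal axis), filled where the adjusted p was under 0.05, with the members' median as a solid line. Grey bands and dashed lines give the middle 50% and the median of all 6901 tested genes. The members' median lies near that of all genes for both treatments and at -0.52 for vector against vehicle.

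Among the comparisons, the members' median was farthest from that of all genes between the 2 control groups, which received neither 12-HETE nor ADAR1 p150. With vector, 53 of 57 members (93.0%) were below vehicle, where 51.0% of all tested genes were, and the median was -0.52 (lowest -1.04, highest 0.43) against -0.01 over all tested genes. A single member passed the adjusted threshold in edgeR, or 1.75%, where 7 of all tested genes were called lower (0.101%) and 1 higher (0.0145%). It was Rps2, at 140 and 188 CPM with vehicle and 89.5 and 98.7 with vector (log2 fold change -0.80, SE 0.16, adjusted p = 0.0366 in edgeR). The call was lost without vehicle replicate 5 (-0.55, adjusted p = 0.799) or vector replicate 1 (-0.74, adjusted p = 0.382). At an unadjusted p under 0.05, 29 members were lower (50.9%, background 7.96%) and 0 higher (background 3.56%). Both vector libraries lay below both vehicle libraries for 37 members (64.9%, background 23.3%).

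Many named members had the same direction without passing. Rpl8 was at 76.2 and 86.3 CPM with vehicle and 45.6 and 43.7 with vector (log2 fold change -0.86, SE 0.19, adjusted p = 0.0532 in edgeR). Rplp0 (log2 fold change -0.76, SE 0.20) and Rpl10a (-0.81, SE 0.29) had values of like size, and Rps18 (-0.35, SE 0.14), Rpl12 (-0.41, SE 0.20) and Rps23 (-0.54, SE 0.28) smaller ones. For Rpl41 the groups overlapped, with 187 and 307 CPM against 124 and 190 (log2 fold change -0.65, SE 0.17), and it passed without vehicle replicate 4 (-0.96, adjusted p = 0.00306 in edgeR) or vector replicate 2 (adjusted p = 0.00341). Without vector replicate 2, Rplp0 passed as well (-1.08, adjusted p = 0.0247). Rpl10 was at 20.5 and 22.4 CPM against 12.8 and 13.1 (log2 fold change -0.73, SE 0.39). All 23 small subunit genes and 28 of 32 large subunit genes were below 0, with medians of -0.54 and -0.50. The median was the same to 2 decimals, -0.52, over the members with no gene on the opposite strand. The 8 tested pseudogenes had a median of 0.01. Of 13 tested opposite-strand genes with overlapping exons, 9 were above 0 and 4 below in this comparison, from -0.33 to 0.46 with a median of 0.12, and 0 were called. With 12-HETE, 11 of the 13 were above 0 and 7 were called (53.8%), where 29.3% of all tested genes were called. The 7 called had mean counts from 40.25 to 1237, against a median of 27.5 over all tested genes. These shares were not compared among genes of like count. With ADAR1 p150, 7 of the 13 were above 0 and 2 were called (15.4%, background 25.6%). For ADAR1 p150 against 12-HETE, 3 of the 13 were above 0 and 5 were called in either direction (38.5%). Of all tested genes, 17.7% were called higher and a further 15.7% lower, and the background is both shares added together.

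The difference between the control groups moved with the class of gene and with single libraries. Tested protein-coding genes had a median of -0.11 and lincRNA, antisense and processed transcript genes one of 0.11, so the members lay below other protein-coding genes as well. Without vehicle replicate 5 the members' median was -0.24 and 4 members had an unadjusted p under 0.05, and without vector replicate 1 there were 10. DESeq2 gave 7 at an unadjusted p under 0.05 and 0 at an adjusted one. Vehicle and vector differ in the agent, the replicate numbers and the experiment, which cannot be told apart.

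Members also moved together between replicates of 1 group. In vehicle, 51 of 57 members (89.5%) were higher in replicate 5 than in replicate 4, where 50.6% of all tested genes were, with a median difference of 0.30 in log2(CPM + 1). In ADAR1 p150, 52 of 57 (91.2%) were lower in replicate 2 than in replicate 1, against 48.4% of all tested genes, with a median of -0.49. With 12-HETE, 44 of 57 (77.2%) were lower in replicate 5 than in replicate 4, at -0.24, and with vector 42 of 57 (73.7%) were higher in replicate 2 than in replicate 1, at 0.15. The medians of all tested genes lay between 0.01 and 0.03 in the 4 groups. The SD of a library's median member shift was 0.22 on the log2 scale over the 4 groups. The medians for 12-HETE (-0.15) and ADAR1 p150 (-0.09) were smaller than this spread, and that for vector against vehicle was larger. This spread was taken within groups only. Vector and vehicle also differ in the experiment, and a spread between experiments was not measured. Since members moved together, they were not independent of each other, and counts of members below 0 overstate how much separate evidence there was.

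**Figure D5:**
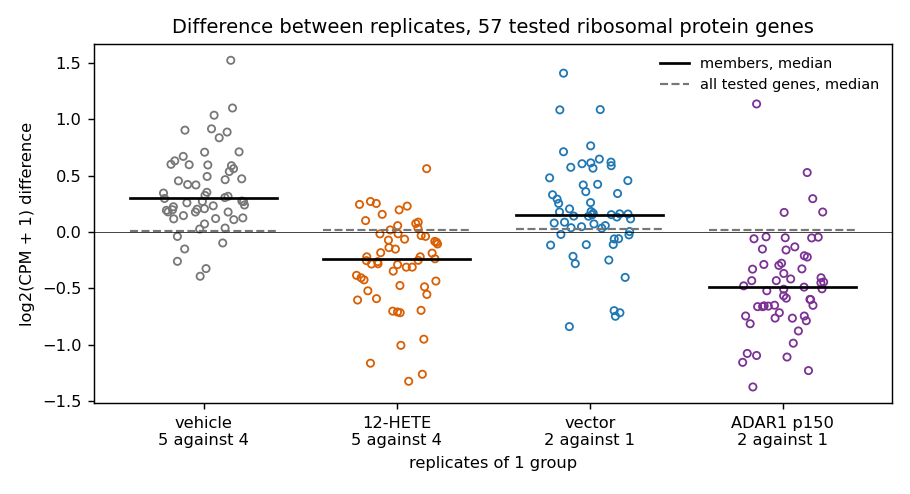
Circles give, for each of the 57 tested members, the difference in log2(CPM + 1) between the 2 replicates of a group (vertical axis), for the 4 groups (horizontal axis). Solid lines are the members' medians, 0.30, -0.24, 0.15 and -0.49, and dashed lines the medians of all tested genes, which lie near 0.

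The treated groups were also compared across the experiments, a comparison added after that of the control groups had been seen. It uses other libraries than the comparison of vehicle and vector, and treatment and experiment cannot be told apart in it. Of 57 members, 52 (91.2%) were lower with ADAR1 p150 than with 12-HETE, against 52.3% of all tested genes, with a median of -0.39 against -0.04. In edgeR 12 members (21.1%) were called lower and 0 higher, where 15.7% of all tested genes were called lower and 17.7% higher. Among them were Rpl41, Rpl18, Rpl27, Rps2, Rps14, Rplp0, Rpl13a, Rpl31, Rpl30, Rps24 and Rpl7, named after their values were seen. Rpl31 had the lowest adjusted p (log2 fold change -0.68, adjusted p = 0.0031 in edgeR), and Rpl7 the largest difference of the 12 (-0.79). DESeq2 called 0, and without 12-HETE replicate 4 (Rpl31 and Rpl30, both lower) or ADAR1 p150 replicate 2 (Rpl31 lower, Rpl3l higher) there were 2. Without ADAR1 p150 replicate 1 there were 21.

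Other genes of the translation machinery, taken from written lists, are given for comparison. Of 22 mRNAs with a TOP tract that do not encode ribosomal proteins, 19 were tested. All 19 were below 0 with vector against vehicle (median -0.49), and 1 of them, the elongation factor Eef2, was called (log2 fold change -0.71, SE 0.14, adjusted p = 0.0366 in edgeR). Of 23 tested translation initiation genes, 22 were below 0 there (median -0.45) and 0 were called. Genes of ribosome biogenesis (29 tested) had a median of -0.21, those of ribosome quality control (7 tested) -0.41, of rRNA transcription (9 tested) -0.18 and of mTORC1 and TOP regulators (10 tested) -0.26. The 15 tested of 78 mitochondrial ribosomal protein genes differed in sign, with 9 above 0 and a median of 0.08. The 4 tested ribosomal protein genes whose names fall outside the rule, such as Fau and Rps3a1, had a median of -0.83.

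With 12-HETE, 4 of the 19 other TOP mRNAs (21.1%) were called in edgeR, where 29.3% of all tested genes were called in either direction. Eef2, Tpt1 and the poly(A)-binding protein Pabpc1 were lower (log2 fold changes -0.79, -0.54 and -0.45), and Eif2s3x, a subunit of eIF2, higher (1.76). Fau, whose product is a ubiquitin-like protein fused to a small subunit protein, was lower as well (-1.12). Initiation genes (26.1% called) had 4 called higher (Eif4g2, Eif6, Eif4a2 and Eif3b) and 2 lower (Eif5 and Eif3c), with a median of 0.22. Biogenesis genes (20.7% called) had 4 higher (Dkc1, Utp20, Ncl and Bysl) and 2 lower (Sbds and Tsr1), with a median of 0.25. Myc, a driver of ribosomal gene transcription, was lower (-2.26, SE 0.40, on a mean of 18.8 counts), as was Tsc2, an inhibitor of mTORC1 (-1.44, SE 0.15). The ribosome rescue factor Pelo was higher (2.11), and of mitochondrial ribosomal protein genes Mrpl10, Mrpl18 and Mrpl48 were higher and Mrps25 lower (26.7% called). Each of these shares was below that over all tested genes.

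With ADAR1 p150, 25.6% of all tested genes were called in either direction, and 1 of 19 other TOP mRNAs (5.26%), 1 of 23 initiation genes (4.35%), 2 of 29 biogenesis genes (6.90%), 3 of 15 mitochondrial ribosomal protein genes and 2 of 10 mTORC1 and TOP regulators were. So were 1 of 9 rRNA transcription genes (11.1%) and 1 of 7 quality control genes (14.3%). Eif2s3x (1.22), Pelo (1.19), Dkc1 (1.21) and Mrpl27 (1.18) were called higher in edgeR. Myc (-1.38), Tsc2 (-0.65), Sbds (-1.42), Eif3c (-0.92), Mrps25 (-0.59), Mrpl52 (-1.59) and Larp1 (-0.54), the protein that binds TOP tracts, were called lower. Of the 4 tested ribosomal protein genes outside the naming rule, 0 were called with ADAR1 p150, and their median was -0.18.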

How the data were processed

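Raw counts per gene, deposited by the authors for 8 libraries of EO771 cells, were analysed. For the editing analysis, the paper's methods name FastQC, duplicate removal with prinseq and alignment to GRCm38 with STAR. For expression they name STAR and featureCounts. The methods name Trizol and a directional kit, and the sample labels another extraction and library kit. The strand setting is not given in the sources used here. Whether duplicates were removed before these counts were made is not stated, and if they were, counts are not the original read numbers. Floors cover counting error only, while SEs rest on the fitted spread between replicates.

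Groups were taken from the sample labels. Of 49997 genes, 6901 reached the minimum, an average of 10 counts across the 8 libraries. They were scaled by TMM and fitted together, 1 coefficient for each group and no replicate block, with the quasi-likelihood F-test of edgeR 4.0.16 (with limma 3.58.1 under R 4.3.3). p-values were adjusted over all 6901 genes by Benjamini-Hochberg. An SE is the absolute log2 fold change over the square root of F. Library totals were between 1101767 and 1537037 counts. The chi-square per gene between replicates, from 1.39 to 1.71, was above sampling noise. On simulated data with 6901 genes, 43 of 100 genes changed 2-fold and 86 of 100 changed 4-fold were recovered for 12-HETE against vehicle, with 3 false calls.

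Membership follows from names alone, but this set and the gene lists were chosen with earlier results of these data known. Members named are the markers, Rpsa and the stalk genes, the highest by level, those called in a comparison, genes named with a final l with their parents, Rps27a, those at 0 or next to the minimum, and their opposite-strand genes. Positions, strands, exon overlap and transcript lengths are from GENCODE M21, which held 76.0% of the table's symbols and all members, and windows from RefSeq. Alternatives were DESeq2 1.42.0, RLE factors, no factors, leaving out AY036118, Rn7s1 and Rn7s2, other minimum counts, fits of 4 libraries, a replicate block, a 2-fold change in addition, members with no gene on the opposite strand, and leaving out each library. Editing was not analysed here. Values of some genes are not reported here.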

Additional observations from a re-analysis of the deposited data

Results flagged for a closer look

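No ribosomal protein gene passed the test of the difference between both effects, and 3 of their 14 tested opposite-strand partners did (21.4%, where 15.0% of all tested genes passed in either direction), each with a Benjamini-Hochberg adjusted p from edgeR. Sphk2, opposite to Rpl18, had 41 and 34 counts under vehicle and 18 and 13 under 12-HETE, against 50 and 45 in vector cells and 65 and 56 in ADAR1 p150 cells. Its effects differed by 1.51 on the log2 scale (adjusted p = 0.0046). Rpl18 itself differed by -0.17 (adjusted p = 0.618). Wdr38, opposite to Rpl35, had log2 fold changes of 0.40 with 12-HETE and -0.22 with ADAR1 p150, a difference of -0.62 (adjusted p = 0.0083). Gm15420, opposite to Rps10, had 0.55 and -0.34, a difference of -0.89 (adjusted p = 0.029). With the strand setting not given, reads of these genes and of the members opposite to them cannot be told apart.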

How the results depend on the processing

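The number of members called depended on the processing in each comparison. Shares over all tested genes are not given for the alternatives, so a change in these counts cannot be told from a change in all calls. With 12-HETE, 5 members were called, 0 by DESeq2 or with a 2-fold change in addition, 8 with RLE factors, without AY036118, Rn7s1 and Rn7s2 or in the fit of 4 libraries, 10 with no factors, and between 1 and 9 with each library left out. With ADAR1 p150, 2 were called, 0 by DESeq2 or with no factors, 1 with 10 counts in every library or a 2-fold change, 4 with RLE factors, without the 3 abundant genes or in the fit of 4 libraries, and between 1 and 4 with each library left out. For vector against vehicle, 1 was called, 0 by DESeq2, with no factors or with a 2-fold change, 2 without the 3 abundant genes, and between 0 and 5 with each library left out. There, the 29 members at an unadjusted p under 0.05 became 7 by DESeq2 and between 4 and 30 with each library left out. For the difference between both effects, 0 were called, and between 0 and 1 with each library left out. For ADAR1 p150 against 12-HETE, 12 were called, 0 by DESeq2 or with a 2-fold change, 1 with no factors, 4 with no minimum, and between 2 and 21 with each library left out.

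With the replicate number as a block, 3 members were called with 12-HETE and 1 with ADAR1 p150. Same-numbered libraries did not deviate together (correlations of -0.0798 and -0.114), so the numbers were not taken to pair them. The crossed replicate block, chosen after seeing the data, called 5 with ADAR1 p150.

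The medians kept their sign under the alternatives other than leaving out a library, from -0.35 to -0.15 with 12-HETE, -0.17 to -0.06 with ADAR1 p150, -0.57 to -0.44 for vector against vehicle and -0.41 to -0.21 for ADAR1 p150 against 12-HETE. With each library left out they lay from -0.30 to -0.02, -0.32 to 0.18, -0.72 to -0.24 and -0.65 to -0.18. With no factors the median of all genes was -0.20 with 12-HETE and 0.14 for ADAR1 p150 against 12-HETE, and the members' distance from it stayed at -0.15 and -0.35. With each library left out, Rpl41 lay between -0.028 and 0.61 and Rpl10 between -0.29 and 1.08 with 12-HETE. The cause of these changes was not tested. Depth limits all of this, since 25 of 82 members had a mean count under 10.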
